A study of Mus musculus with 4 samples.

Results

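The regions described here are broad stretches of PPP2CA CUT&Tag signal at the edge of a single gene in mouse haematopoietic stem cells. Peaks of both PPP2CA libraries were merged wherever they shared at least 1 bp, and regions with a peak in both PPP2CA libraries and in neither IgG library were kept. A region was a member when its merged width was at least 1600 bp and it lay within 1 kb of a boundary of exactly 1 protein-coding gene. Of 21771 merged regions, 12438 were found in both PPP2CA libraries without an IgG peak, 6003 of these lay at exactly 1 gene, and 385 were broad. The 385 members belonged to 384 genes, because Egr1 had a broad region at each of its boundaries. The other 5618 single-gene regions are called narrower regions below. Members were chosen by the measured merged width and by which libraries had a peak, so their widths, heights and folds are given as a description with no test.

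The study profiled haematopoietic stem cells (HSCs) taken from the marrow of mice wild type for Ppp2ca and asked which genomic sites PPP2CA occupies. There were 2 libraries made with an antibody to PPP2CA and 2 made with IgG, an antibody with no intended target, each from 100000 primary cells with the Vazyme Hyperactive Universal CUT&Tag kit. All 4 libraries came from the same genotype, and no treatment, age, sex or cell sorting scheme is named in the labels used here. Nothing ties the replicates to different animals, and differences between replicates may be technical.

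PPP2CA is a catalytic subunit of protein phosphatase 2A (PP2A), a serine/threonine phosphatase that works as a complex of scaffold, regulatory and catalytic subunits. In the nucleus PP2A complexes dephosphorylate, among other proteins, components of the transcription machinery, and a form of it is bound to the Integrator complex at RNA polymerase II. CUT&Tag tethers a transposase to the antibody, so that adapters are inserted into DNA near the bound protein. Immediate-early genes, which recur below, are genes that cells transcribe within minutes of a signal without making new protein first.

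The lists held 16811 and 17686 peaks in PPP2CA 1 and PPP2CA 2, against 561 and 310 in IgG 1 and IgG 2. The height of a peak is given as the number of DNA fragments at its summit, recovered from the authors' fold and p-value. Its median was 18 fragments in each PPP2CA list and 4 in each IgG list. The lowest local background was 0.784 and 0.8 fragments in the PPP2CA lists and 0.0839 and 0.0833 in the IgG lists, a ratio of 9.47 between the kinds of library, so IgG was much shallower. Divided by that ratio, the lower of the member's PPP2CA summits fell under 3 fragments, the lowest IgG summit called, for 79 of the 385 members (20.5%). For those members the absence of an IgG peak carries little information at this depth. Only 1 member had an IgG peak within 10 kb. Peaks are not expression, so the cell type label could not be checked by marker expression. In the stem cell list of transcription factors and regulators 26 of 41 genes were marked at a boundary, beside 39.5% of all protein-coding genes. The counts were 1 of 23 lymphoid, 5 of 22 myeloid, 6 of 21 erythroid and megakaryocyte, and 3 of 20 stromal and endothelial markers. Other regulator lists were marked too, with 46 of 55 chromatin regulators, 31 of 34 MAP kinase genes and 17 of 33 Wnt genes. The lists were written with earlier results of these data known, so these counts do not check the label.

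Promoters of 6 members are printed here because their regions recur in the results. They belong to the MAP kinase phosphatase Dusp1, the antiproliferative factors Btg2 and Btg1, the stress sensor Gadd45b, the chemokine receptor Cxcr4 and the forkhead factor Foxo3. Each stretch is the 250 bases before the gene start on the gene's strand, read from the RefSeq promoter table of GRCm38.p6, and lies wholly inside the broad region. Capitals mark 4 motifs found on either strand. The GC box reads GGGCGGG and is bound by factors of the SP and KLF families. The cAMP response element (CRE) reads TGACGTCA and is bound by CREB and ATF factors. The E box searched here reads CACGTG, the form that MYC and MAX bind, and the TATA box reads TATAAA and is bound by the TATA-binding protein.
Dusp1: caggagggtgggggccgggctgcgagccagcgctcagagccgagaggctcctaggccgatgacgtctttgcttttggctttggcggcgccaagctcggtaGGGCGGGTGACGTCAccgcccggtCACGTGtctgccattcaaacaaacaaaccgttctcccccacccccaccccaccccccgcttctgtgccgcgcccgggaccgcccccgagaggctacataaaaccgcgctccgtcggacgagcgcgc
Btg2: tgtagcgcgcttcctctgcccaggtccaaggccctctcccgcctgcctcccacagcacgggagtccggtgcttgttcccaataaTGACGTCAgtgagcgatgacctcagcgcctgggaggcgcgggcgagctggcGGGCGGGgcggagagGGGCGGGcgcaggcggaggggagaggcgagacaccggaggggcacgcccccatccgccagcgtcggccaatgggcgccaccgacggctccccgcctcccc
Gadd45b: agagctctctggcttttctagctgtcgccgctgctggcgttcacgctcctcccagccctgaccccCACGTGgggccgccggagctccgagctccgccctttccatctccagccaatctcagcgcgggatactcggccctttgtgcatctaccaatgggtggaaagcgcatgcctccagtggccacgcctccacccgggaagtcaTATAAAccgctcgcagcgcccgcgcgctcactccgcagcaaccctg
Btg1: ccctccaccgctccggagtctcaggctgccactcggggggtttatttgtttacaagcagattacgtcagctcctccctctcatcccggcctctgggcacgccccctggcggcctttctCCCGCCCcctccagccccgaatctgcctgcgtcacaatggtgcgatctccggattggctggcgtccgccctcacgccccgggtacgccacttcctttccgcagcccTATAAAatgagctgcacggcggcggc
Cxcr4: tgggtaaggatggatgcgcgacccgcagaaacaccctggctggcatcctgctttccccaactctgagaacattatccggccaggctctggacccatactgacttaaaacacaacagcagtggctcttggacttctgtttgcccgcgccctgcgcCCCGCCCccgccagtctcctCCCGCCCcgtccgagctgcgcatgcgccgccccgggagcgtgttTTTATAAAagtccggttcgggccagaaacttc
Foxo3: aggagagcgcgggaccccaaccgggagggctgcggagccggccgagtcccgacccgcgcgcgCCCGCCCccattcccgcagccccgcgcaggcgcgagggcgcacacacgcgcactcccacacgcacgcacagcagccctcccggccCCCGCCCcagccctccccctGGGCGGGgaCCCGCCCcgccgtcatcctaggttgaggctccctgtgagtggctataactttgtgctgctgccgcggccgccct
The Dusp1 stretch lies at chr17:26508473-26508722 on the minus strand, that of Btg2 at chr1:134079156-134079405 on the minus strand and that of Gadd45b at chr10:80929841-80930090 on the plus strand. The Btg1 stretch lies at chr10:96616751-96617000 on the plus strand, that of Cxcr4 at chr1:128592300-128592549 on the minus strand and that of Foxo3 at chr10:42276696-42276945 on the minus strand. The capitals show that Dusp1 has a GC box directly followed by a CRE and then an E box, Btg2 has a CRE and 2 GC boxes, and Gadd45b has an E box and a TATA box. Btg1 has a GC box and a TATA box, Cxcr4 has 2 GC boxes and TATA letters on both strands, which overlap, and Foxo3 has 4 GC boxes. A match describes the letters and does not show that a factor binds there.

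Members were 1600 to 3245 bp wide, with a median of 1804 bp and quartiles of 1689 and 2008 bp. Broad regions made up 6.41% of all single-gene regions (385 of 6003, exact 95% interval 5.81% to 7.06%). The share was 9.83% (148 of 1506) at the boundaries of 2 or more protein-coding genes and 9% (54 of 600) at the end of a long non-coding RNA gene only. It was 3.45% (91 of 2638) inside a protein-coding gene and 2.37% (40 of 1691) outside such genes. The interval for single-gene regions lay below that for regions at several genes, which was 8.37% to 11.4%, and above those for regions inside genes (2.79% to 4.22%) and outside them (1.7% to 3.21%). Just inside the width limit were Bach2, a B-cell repressor, at 1600 bp, Vps4a, an ATPase of membrane scission, at 1602 bp, and Crim1, a transmembrane protein that binds bone morphogenetic proteins, at 1603 bp. Just outside it were Ppp4r3b, a regulatory subunit of protein phosphatase 4, Borcs6, a subunit of a lysosome positioning complex, and Pex5, the peroxisomal import receptor, each at 1599 bp. The Ppp4r3b region had 148 and 151 fragments at its summit in PPP2CA 1 and PPP2CA 2, against 31 and 35 at Bach2. Close to the limit a high region could thus fall outside it and a lower one inside.

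Broad regions were also higher than narrower ones. Their median summit was 54 fragments in PPP2CA 1 and 61 in PPP2CA 2 (ranges 9 to 1025 and 12 to 1128), against 25 and 28 in narrower regions. Both summits held at least 100 fragments in 90 of 385 members (23.4%) and in 329 of 5618 narrower regions (5.86%). The median fold, as the authors give it, was nevertheless 6.44 and 6.38 in broad regions against 6.87 and 6.84 in narrower ones. The local background under the summit was 7.68 and 8.79 fragments in broad regions, against 2.87 and 3.19 in narrower ones. Broad regions thus had more fragments at the summit and a higher local background, and the fold, which divides the summit by its background, did not follow the height. This background was recovered from the authors' fold and p-value and is not a count of fragments around the summit. How it was set, and whether from IgG, was not given.

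The share of broad regions grew with height. Where the lower of both summits was under 20 fragments, 1.26% of single-gene regions were broad. The share was 5.42% at 20 to 39 fragments, 10.9% at 40 to 79, 17.8% at 80 to 159, 22.5% at 160 to 319 and 46.4% (13 of 28) at 320 or more. Across the 6003 single-gene regions width and height had a Spearman correlation of 0.53, and across the 385 members, whose width range is cut by the rule, it was 0.20. All these regions share the same 2 libraries. In each of the 6 height classes the median fold of broad regions was lower than that of narrower ones in both libraries, for example 7.68 and 7.59 against 9.79 and 9.52 at 80 to 159 fragments.

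**Figure D1:**
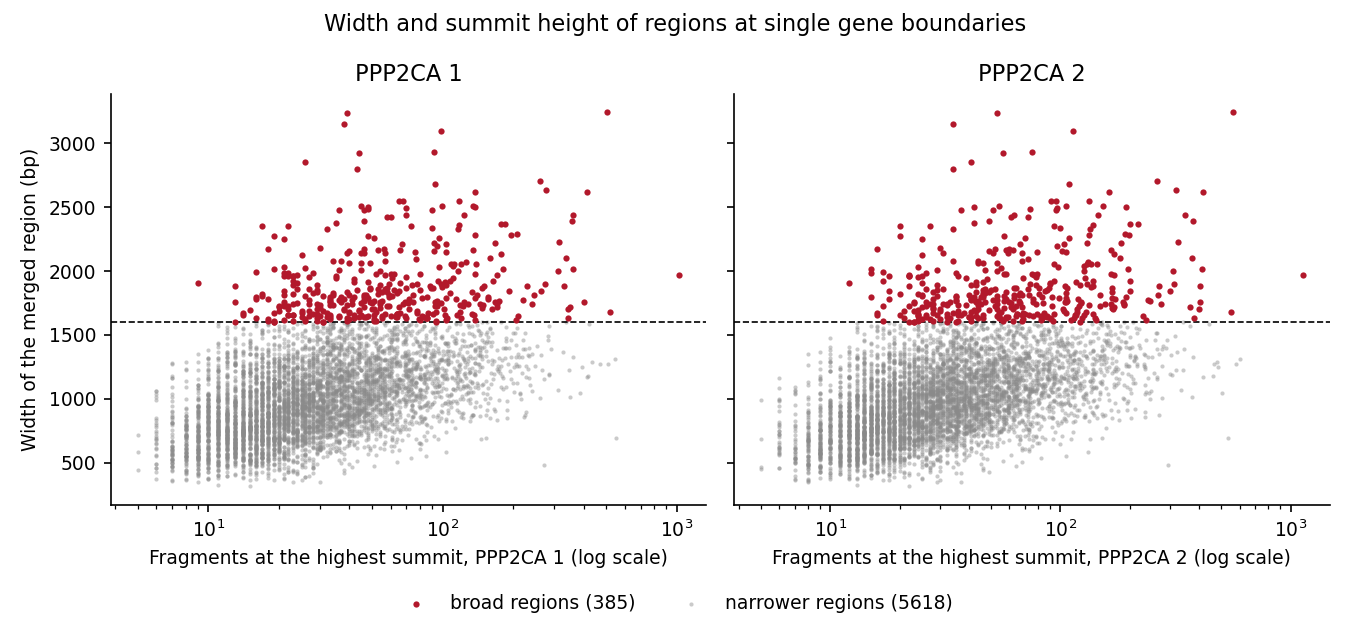
Width of the merged region in bp (linear axis) against fragments at its highest summit in PPP2CA 1 (left) and PPP2CA 2 (right, log axes), with 1 point per single-gene region; red points are the 385 broad regions, grey points the 5618 narrower ones and the dashed line is the width limit of 1600 bp. Wide regions occur at all heights from 9 fragments up, and the cloud tilts towards greater width at greater height.

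The libraries gave much the same stretch of DNA for most members. In 352 of 385 members (91.4%) each library had a single peak, against 5606 of 5618 narrower regions (99.8%). Members were thus more often split into several peaks. Joining several peaks makes a merged region wider, so this difference follows in part from the choice by width. The stretch called in both libraries had a median of 1530 bp, or 84.6% of the merged width. The summits of both libraries were a median of 86 bp apart in broad regions and 80 bp in narrower ones. They lay over 500 bp apart in 38 members (9.87%) against 123 narrower regions (2.19%). Narrower regions, with a median width of 956 bp, leave less room for such a gap. The limit of 1600 bp was met less evenly: the widest peak reached it in 229 members in PPP2CA 1, in 272 in PPP2CA 2, in both in 164 (42.6%) and in neither in 48 (12.5%). Membership of the 48 rests on joining peaks of both libraries. With PPP2CA 1 alone 227 regions met the rule, and 159 did when the stretch shared by both libraries had to be 1600 bp. PPP2CA 2 had the higher summit in 298 members (77.4%) and the wider peaks in 217 (56.4%), against 61.2% and 57% of narrower regions.

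Strand was taken from the RefSeq promoter table, which matched 308 of the 384 member genes. Of the 308 members with a strand, 285 (92.5%, 89% to 95.2%) lay at the start of their gene alone, 15 (4.87%) at its 3′ boundary alone and 8 (2.6%) within reach of both. Narrower regions lay at the start in 95.6%, at the 3′ boundary in 3.16% and at both in 1.21% of 4557. The members were therefore mostly promoter regions. For the start the exact intervals of both kinds overlapped only narrowly (89% to 95.2% for broad, 95% to 96.2% for narrower regions). They also overlapped for the 3′ boundary (2.75% to 7.91% for broad, 2.67% to 3.71% for narrower regions). Overlap does not show that the shares are alike, and a wider region reaches both boundaries of a gene more readily. Of all single-gene regions, 6.14% at a start, 9.43% at a 3′ boundary (15 of 159) and 12.7% at both (8 of 63) were broad.

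Broad regions at starts reached further on both sides of the start. With the start at 0 and positive values inside the gene, their median edges lay at -562 and 1248 bp, against -302 and 636 bp for narrower regions. The position at 1000 bp was covered by 70.2% of broad and 15% of narrower regions, and that at -500 bp by 57.5% and 24.2%. The larger reach follows from the choice by width. What the rule did not set is the side: the part past the start was the longer one in 226 of 285 broad regions (79.3%) and in 77.2% of narrower ones, so both kinds leaned into the gene. The region held the annotated start in 242 members (84.9%) and in 85.5% of narrower regions. Another 42 members lay wholly past the outermost start, and 31 of these held a different annotated start of the same gene. Both summits lay past the start in 159 broad regions (55.8%) and 60.5% of narrower ones, and both lay before it in 92 (32.3%) and 22.9%.

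**Figure D2:**
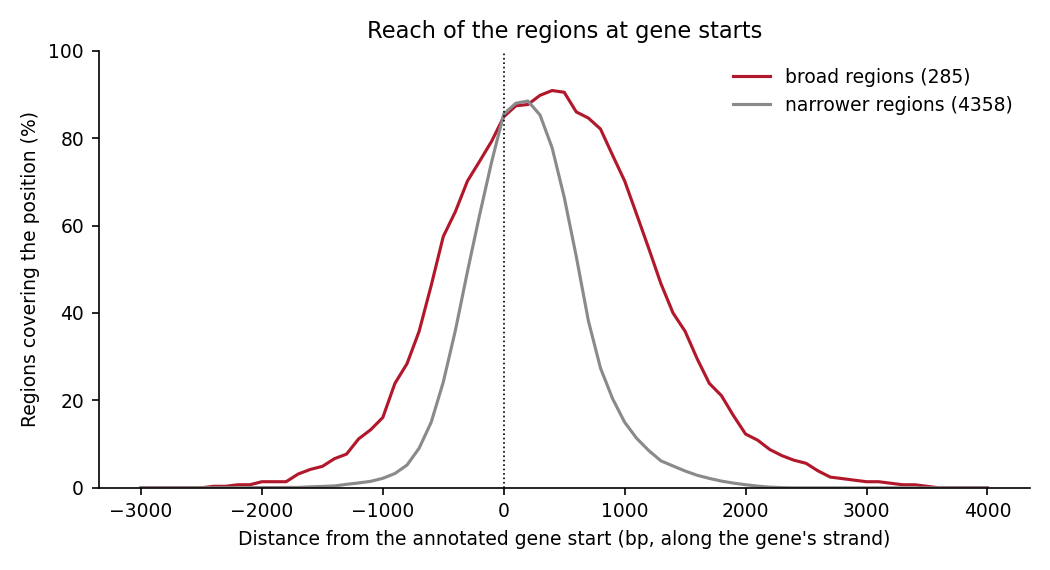
Percent of regions covering each position around the annotated gene start, with distance in bp along the gene's strand, for the 285 broad (red) and 4358 narrower (grey) regions at a start with a known strand. The broad profile covers 46.7% at 1300 bp and 28.4% at -800 bp, against 6.17% and 5.21% for the narrower profile.

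The promoters of genes with a broad region at the start were rich in GC and CpG. Of the 285 broad regions 242 held the annotated start, so some promoter windows lay partly or wholly outside the region. The 300 bases from 250 before to 50 past the start had a median GC content of 66.7% in 285 broad promoters, 62% in 4335 promoters with a narrower region and 51% in 10423 promoters of genes with no region, against 56.3% over all 17492. The CpG ratio, observed over expected from base composition, had medians of 0.833, 0.802, 0.302 and 0.577 in the same sets, and exceeded 0.6 in 84.2%, 81%, 26.8% and 48.4%. A GC box was found in 67% of broad, 54.7% of narrower, 21.7% of unmarked and 34% of all promoters. Broad promoters thus stood near narrower ones in CpG and somewhat above them in GC content.

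Other motifs, searched on both strands of the same windows, were less frequent. TATAAA occurred in 8.07% of broad, 6.07% of narrower and 13.3% of all promoters. The ETS site CCGGAAGT occurred in 4.91%, 8.72% and 5.28%, the CRE in 3.51%, 4.11% and 2.33%, and the AP-1 site TGAGTCA in 2.11%, 2.88% and 4.56%. The CCAAT box CCAATCA occurred in 8.42%, 11.7% and 9.59%, and the E box in 11.2%, 11.1% and 7.91%. The NF-kappaB site was found in 3 broad promoters (1.05%), 0.115% of narrower and 0.143% of all, and the CArG box in 0 broad, 0.0231% of narrower and 0.114% of all. No match says only that these letters are not in this window. More than 1 start was listed for 23.5% of broad and 17.7% of narrower genes.

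The highest member by rank was at Egr1, a zinc finger transcription factor induced by growth and stress signals. Its region at the low-coordinate boundary, chr18:34859904-34861872, was 1969 bp wide and had 1025 fragments in PPP2CA 1 and 1128 in PPP2CA 2. A second region at the high-coordinate boundary, chr18:34865021-34868265, was the widest of all members at 3245 bp and had 501 and 564 fragments. Together they flank the gene, and their fold was 5.33 and 5.20 at the low end against 2.90 and 2.76 at the high end. No strand for Egr1 is in the table used here.

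Wide members were not always high ones. Smarca2, an ATPase of the SWI/SNF chromatin remodelling complex, had a region of 3242 bp with 39 and 53 fragments. Tsc22d2, a leucine zipper protein, had 2927 bp with 44 and 56. Slc43a2, an amino acid transporter, had 2851 bp with 26 and 41. Lzts2, a leucine zipper protein that restrains beta-catenin, had 2803 bp with 43 and 34. All 4 lay below the members' median height in both libraries, and at Slc43a2 the widest peak was 778 bp in PPP2CA 1 and 2851 bp in PPP2CA 2. LOC102634078, which the gene table gives without a further name, was alike, with 3153 bp, 38 and 34 fragments and widest peaks of 3153 and 1119 bp.

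Others were both wide and high. H2-DMa, which helps load peptides on class II MHC molecules, had 2706 bp with 261 and 262 fragments, called over the whole width in both libraries. Klf13, a zinc finger factor that binds GC-rich DNA, had 2638 bp with 276 and 319. Mknk2, a kinase downstream of MAP kinases that phosphorylates the translation factor eIF4E, had 2616 bp with 413 and 418. Pygm, a glycogen phosphorylase best known from muscle, and Ubald1 were in between, with 92 and 75 fragments over 2935 bp and 93 and 109 over 2682 bp.

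The remaining members with the best ranks were narrower than these. Luc7l2, a splicing factor related to a U1 snRNP protein, had 342 and 400 fragments over 1707 bp and the highest fold among members in PPP2CA 1, at 11.6. Csnk1g2, a casein kinase, had 350 and 367 over 1717 bp, and Nfe2l2, the transcription factor NRF2 of the oxidative stress response, had 342 and 382 over 1635 bp. Kansl1l had 330 and 403 over 1881 bp and Rdm1, a protein with a RAD52-type motif, 360 and 413 over 2019 bp. Skil, the SnoN repressor of SMAD signalling, had 338 and 372 over 2101 bp. All 6 held at least 330 fragments in both libraries.

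Immediate-early and feedback genes held the largest share of broad regions among the 28 gene lists examined. Of all 21779 protein-coding genes 384 (1.76%) had a broad region of their own, and of the 5902 with any region of their own (27.1% of genes) 6.51% did. Of the 42 immediate-early and feedback genes, 18 had one (42.9%, exact interval 27.7% to 59%), or 51.4% of the 35 with a region of their own. Their regions were also high: the median of the lower summit over genes with a region of their own was 155 fragments, against 25 over all such genes. Among regions whose lower summit was at least 80 fragments, 16 of 33 at immediate-early genes (48.5%, 30.8% to 66.5%) and 110 of 598 at other genes (18.4%, 15.4% to 21.7%) were broad. Between 20 and 79 fragments 3 of 8 (37.5%, 8.52% to 75.5%) and 227 of 3067 (7.4%) were. Heights within the class of 80 or more were uneven, with 10 of the 33 immediate-early regions but 18 of the 598 others at 320 or more. Split further, 7 of 15 (46.7%, 21.3% to 73.4%) and 79 of 468 (16.9%, 13.6% to 20.6%) were broad at 80 to 159 fragments. At 160 to 319 fragments 3 of 8 (37.5%, 8.52% to 75.5%) and 24 of 112 (21.4%, 14.2% to 30.2%) were. At 320 or more 6 of 10 (60%, 26.2% to 87.8%) and 7 of 18 (38.9%, 17.3% to 64.3%) were. The share was higher at immediate-early genes in each class, but the intervals overlapped in the upper classes, from 160 fragments. The members were chosen by measured width, and the lists were written with earlier results of these data known. These shares are therefore a description only, and no test was made.

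Within this list the AP-1 factors had broad regions at several positions. Junb had a region of 2390 bp within reach of both of its boundaries, chr8:84977814-84980203, with 356 fragments in PPP2CA 1 and 378 in PPP2CA 2. A second, higher Junb place at its 3′ boundary, 1223 bp wide with 443 and 443 fragments, touched an IgG peak and was not kept. Fosb and Fos had their broad regions at the 3′ boundary, with 111 and 128 fragments over 1949 bp and 104 and 115 over 1629 bp. Jun had a place of 2282 bp with 819 and 898 fragments that was left out because of a peak of 12 fragments in IgG 1. All 4 are subunits of the AP-1 dimer, and Fosl2, another, missed the limit at 1598 bp with 155 and 189 fragments.

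Among the phosphatases that switch off MAP kinases, Dusp6, which acts on ERK, had 2509 bp with 99 and 106 fragments. Dusp1, a nuclear MAP kinase phosphatase, had 1757 bp with 403 and 404, and its region extended from -798 to 958 bp of the start. Dusp2 missed the limit at 1585 bp with 422 and 442, and Dusp5 was 1363 bp wide with 111 and 122. Dusp6 was thus the widest of these 4 and the lowest.

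Zinc finger and nuclear receptor genes followed. Klf10, a repressor induced by TGF-beta, had 2441 bp with 361 and 346 fragments, and Klf4, a pluripotency and quiescence factor, had 1630 bp with 85 and 83. Nr4a1, an orphan nuclear receptor, had 3098 bp with 98 and 113 at its 3′ boundary. Csrnp1, a nuclear protein of the cysteine- and serine-rich family, had 2620 bp with 137 and 162. Of these 4, Klf10 was the highest and Klf4 reached the limit only through PPP2CA 2, where its peak was 1630 bp against 955 bp in PPP2CA 1.

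The growth-arrest genes formed another group. Btg2 had 1771 bp with 220 and 241 fragments and Btg1 1652 bp with 209 and 229, both being antiproliferative partners of the mRNA deadenylase complex. Gadd45b had 1883 bp with 150 and 139 fragments, and Gadd45g, a relative that also binds stress kinases, 1734 bp with 33 and 39. Gadd45a was 1428 bp wide and not a member. Gadd45g was the lowest of the immediate-early members.

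The other immediate-early members were Ier2, Ier5, Rhob and Sik1. Ier2, a small nuclear protein gene, had 516 and 553 fragments over 1683 bp, and Ier5 had 56 and 60 over 2176 bp. Rhob, a small GTPase, had 229 and 267 over 1886 bp, and Sik1, a salt-inducible kinase, had 48 and 53 over 1649 bp. The heights of the 19 immediate-early member regions therefore ran from 33 to 1025 fragments in PPP2CA 1 and from 39 to 1128 in PPP2CA 2.

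The immediate-early share depended on how width was taken. It was 23.8% of the list with PPP2CA 1 alone, where 1.04% of all protein-coding genes had a broad region, and 35.7% with PPP2CA 2 alone, where 1.24% did. It was 21.4% when the stretch shared by both libraries had to be 1600 bp, against 0.725% of all genes. At a limit of 2000 bp it was 16.7% against 0.455%. In each of these settings the share in the list exceeded the share of all genes.

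**Figure D3:**
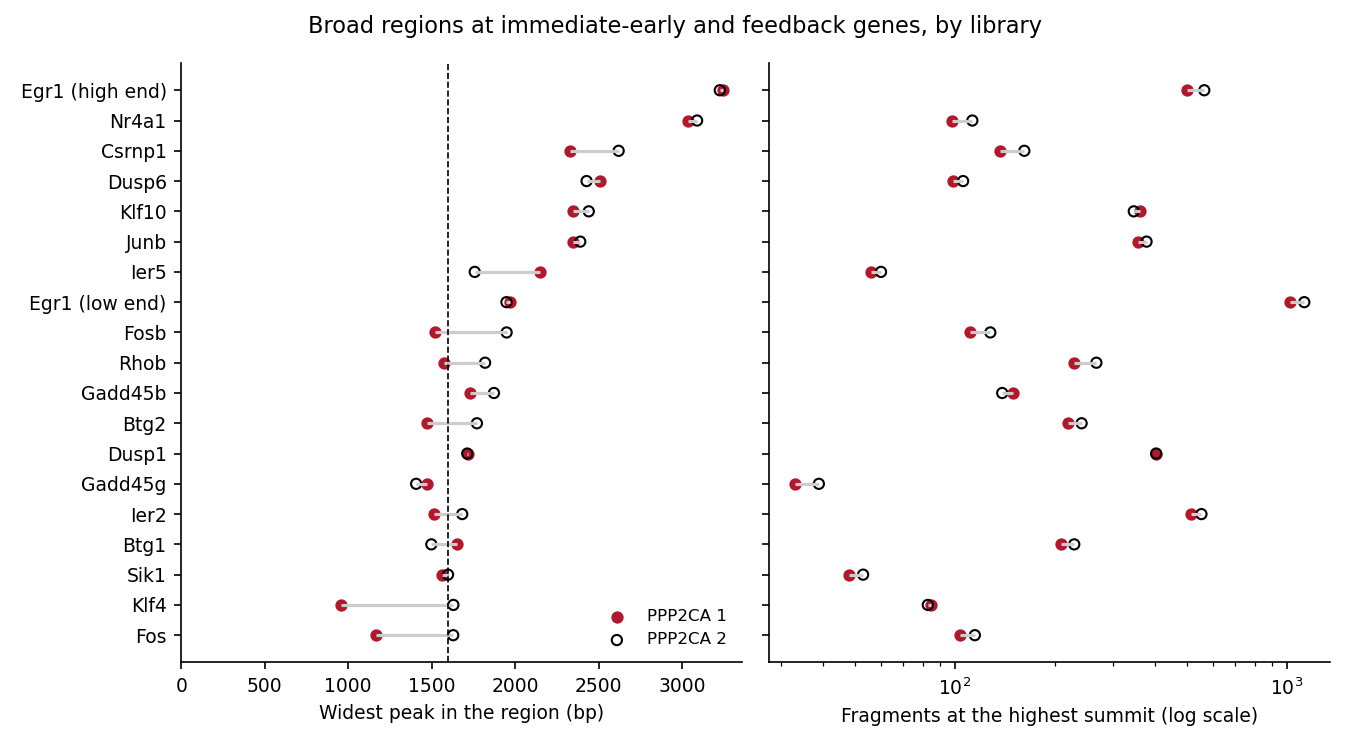
Widest peak in bp (left, linear axis from 0) and fragments at the highest summit (right, log axis) in PPP2CA 1 (filled red) and PPP2CA 2 (open) for the 19 broad regions at the 18 immediate-early and feedback genes, ordered by merged width; grey lines join the libraries and the dashed line is 1600 bp. Heights of the libraries lie close together, while widths differ most at Klf4 (955 and 1630 bp) and Fos (1164 and 1629 bp).

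Stem cell transcription factors and regulators had 6 broad regions among 41 genes (14.6%, 5.57% to 29.2%). Of the 24 with a region of their own 25% had a broad one, beside 6.51% of all such genes. Cxcr4, the receptor that retains stem cells in the marrow, had 2426 bp with 60 and 61 fragments, from -918 to 1507 bp of the start. Hhex, a homeobox factor of early blood development, had 2335 bp with 90 and 100. Foxo3, a forkhead factor of stem cell quiescence, had 2329 bp with 116 and 135. These were above the members' median height or, for Cxcr4, close to it. Mecom, a zinc finger factor needed for HSC self-renewal, was lower at 1858 bp with 27 and 26, as was Mycn, a MYC family factor, at 1725 bp with 21 and 17. Cebpa, the factor that directs myeloid differentiation, had 1704 bp with 51 and 53. The highest of the 6 was thus Foxo3, and none reached the median of 155 of the immediate-early list. The share of this list was 7.32% without PPP2CA 1 and 9.76% without PPP2CA 2.

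Signalling lists held smaller counts, each beside the same 1.76% of all genes. Only 27.1% of all genes had a region of their own, against 25 of 32 in the PI3K list and 26 of 34 in the MAP kinase list. Among genes with a region of their own, 6.51% of all genes had a broad one. That share was 3.85% in the MAP kinase list, 10.5% in the NF-kappaB list and 15.4% in the Wnt list. It was 16% in the PI3K list and 19% in the JAK, STAT, SOCS and IRF list. The PI3K, AKT, mTOR and FOXO list had 4 of 32 (12.5%), among them Foxo3, Ddit4, a stress-induced mTOR inhibitor (2062 bp, 45 and 44 fragments), and Inpp5d, the phosphatase SHIP1 (1839 bp, 39 and 49). The JAK, STAT, SOCS and IRF list had 4 of 31 (12.9%): Stat6, Socs3, Irf7 and Irf1. Irf1, an interferon response factor, was the highest with 114 and 119 fragments over 1778 bp, and Socs3, a cytokine feedback inhibitor, had 62 and 46 over 1850 bp. Stat6, which transmits interleukin-4 signals, had 40 and 49 over 2158 bp and Irf7, another interferon factor, 33 and 45 over 1800 bp. The NF-kappaB list had 2 of 27 (7.41%), Rel, a subunit (1760 bp, 123 and 123), and Traf3, an adaptor that restrains the pathway (2251 bp, 21 and 25). Its inhibitor gene Nfkbia had 416 and 461 fragments in a region of 1178 bp, which shows a high region that was not broad. The Wnt list had 2 of 33 (6.06%), the kinase Gsk3a (1732 bp, 119 and 133) and the receptor Fzd7 (1644 bp, 32 and 32), and the MAP kinase list 1 of 34 (2.94%), the Ras exchange factor Sos2 (1849 bp, 29 and 29). Without PPP2CA 1 the Wnt and MAP kinase lists had 0 broad regions. Without PPP2CA 2 the share was 3.03% in the Wnt list, 3.7% in the NF-kappaB list and 6.45% in the JAK, STAT, SOCS and IRF list.

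Chromatin regulators had 7 broad regions among 55 genes (12.7%, 5.27% to 24.5%), of which the 4 widest are named. The share was 19.4% of the 36 with a region of their own, beside 6.51% of all such genes. Kdm6b, which demethylates histone H3 lysine 27, had 1896 bp with 273 and 311 fragments. Kmt2a, the histone methyltransferase MLL1, had 2165 bp with 66 and 62. Kdm2b, a CpG-binding demethylase, had 2352 bp with 22 and 27, and Arid1b, a SWI/SNF subunit, 1958 bp with 23 and 25. Kdm6b stood well above the other 3 in height. Kdm2b was split, with widest peaks of 1385 and 972 bp, and only 844 bp of it were called in both libraries. Without PPP2CA 2 the share of this list was 7.27%.

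Splicing factors and hnRNPs had 6 of 45 (13.3%, 5.05% to 26.8%), or 24% of the 25 with a region of their own, beside 6.51% of all such genes. Luc7l2, given above, was the highest. Hnrnpu, a scaffold-binding hnRNP, had 2196 bp with 95 and 97 fragments, and Srsf1, a core SR protein, 1702 bp with 101 and 118. Clk1, a kinase of SR proteins, had 91 and 94 over 1664 bp, and Srsf6, another SR protein, 48 and 63 over 1792 bp. Ptbp1, which represses exon inclusion, had 22 and 26 over 1988 bp at its 3′ boundary and was the lowest of the 6. Without PPP2CA 1 the share of this list was 6.67%.

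Cell cycle and damage lists were similar in share. Among genes with a region of their own, 6.51% of all genes had a broad one. That share was 16% in the cyclin list, 25% in the p53 list and 10.5% in the apoptosis list. It was 30% in the ETS family, 11.1% in the MYC network and 10% in the ubiquitin list. Cyclins, CDKs, inhibitors and E2F had 4 of 40 (10%): the E2F factor E2f3 (2550 bp, 65 and 91 fragments), its partner Tfdp1 (1988 bp, 21 and 15), the D-type cyclin Ccnd2 (1809 bp, 34 and 40) and the transcription kinase Cdk12 (1662 bp, 134 and 139). The p53 list had 4 of 30 (13.3%): the death effector Bbc3, also called Puma (2358 bp, 117 and 138), the antiproliferative genes Tob2 (2032 bp, 97 and 98) and Tob1 (1842 bp, 263 and 298), and Btg2. The apoptosis list had 2 of 32 (6.25%), Bbc3 and Bad, another death effector. With 1 PPP2CA library alone, whichever it was, the share was 5% in the cyclin list and 3.12% in the apoptosis list. The ETS family had 3 of 21 (14.3%): Elk3 (1908 bp, 24 and 25), Erf, an ETS repressor (1758 bp, 54 and 60), and Elf2 (1658 bp, 136 and 126), and its share was 4.76% without PPP2CA 1. The MYC, MAX and MXD network had 1 of 13, Mycn, and 0 without PPP2CA 1, where its widest peak was 1725 bp against 934 bp in PPP2CA 2. The ubiquitin list had 3 of 42 (7.14%): the ubiquitin gene Ubb (2001 bp, 311 and 308), the deubiquitinase Usp9x (2106 bp, 159 and 182) and the conjugating enzyme Ube2r2 (1738 bp, 34 and 44). Apart from Tob1, Btg2, Ubb and Usp9x, these members lay below 140 fragments in both libraries.

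Several abundant housekeeping families are given beside the 1.76% of all genes with a broad region, from which counts this small do not set them apart. Among genes with a region of their own, 6.51% of all genes had a broad one. Beside that stood 0 of 55 ribosomal protein genes and 0 of 29 initiation factors. The share was 5.88% in the RNA polymerase II list, 5% in the heat shock list and 6.67% among clustered histones. No interval was computed for these shares. Of 78 cytoplasmic ribosomal protein genes 55 had a region of their own and 0 a broad one, which allows a share of up to 4.62% (exact interval). Their median width was 979 bp and their median lower summit 37 fragments, against 987 bp and 25 over all genes with a region of their own. Of 39 translation initiation factors 29 had a region of their own and 0 a broad one (up to 9.03%). The ribosomal protein regions were thus higher at the median than those of all genes and no wider. The RNA polymerase II, Mediator and Integrator list had 2 of 63 (3.17%), Hexim1, an inhibitor of the elongation kinase P-TEFb (1844 bp, 193 and 200), and the Integrator subunit Ints6 (1742 bp, 240 and 274). Heat shock and chaperone genes had 1 of 38, the chaperone Hsp90ab1 (1801 bp, 157 and 193), and clustered histones 1 of 67, H4c14 (1788 bp, 137 and 167), which was below the limit without PPP2CA 2.

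Of PP2A's own genes, 12 of 26 subunits and regulators had a region of their own and 0 of 26 a broad one (up to 13.2%), which includes the 1.76% of all genes. Ppp2ca itself had a region of 1437 bp with 138 and 164 fragments, below the width limit though high. Hox genes had 0 of 39 and olfactory receptors 0 of 1105, with 3 and 0 genes marked at all. Zinc finger genes with Zfp names had 4 of 367 (1.09%): Zfp236, Zfp1, Zfp367 and Zfp407, with 24 to 76 fragments, and 0.545% without PPP2CA 2. This was 2.96% of the 135 Zfp genes with a region of their own, beside 6.51% of all such genes. Of the marker lists of other cell types, lymphoid, erythroid and megakaryocyte, and stromal and endothelial markers had 0 broad regions, and the myeloid list had 1 of 22, the cytokine receptor Csf2ra (2546 bp, 118 and 133). Of the 384 member genes 72 were in a list and 312 in none.

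**Figure D4:**
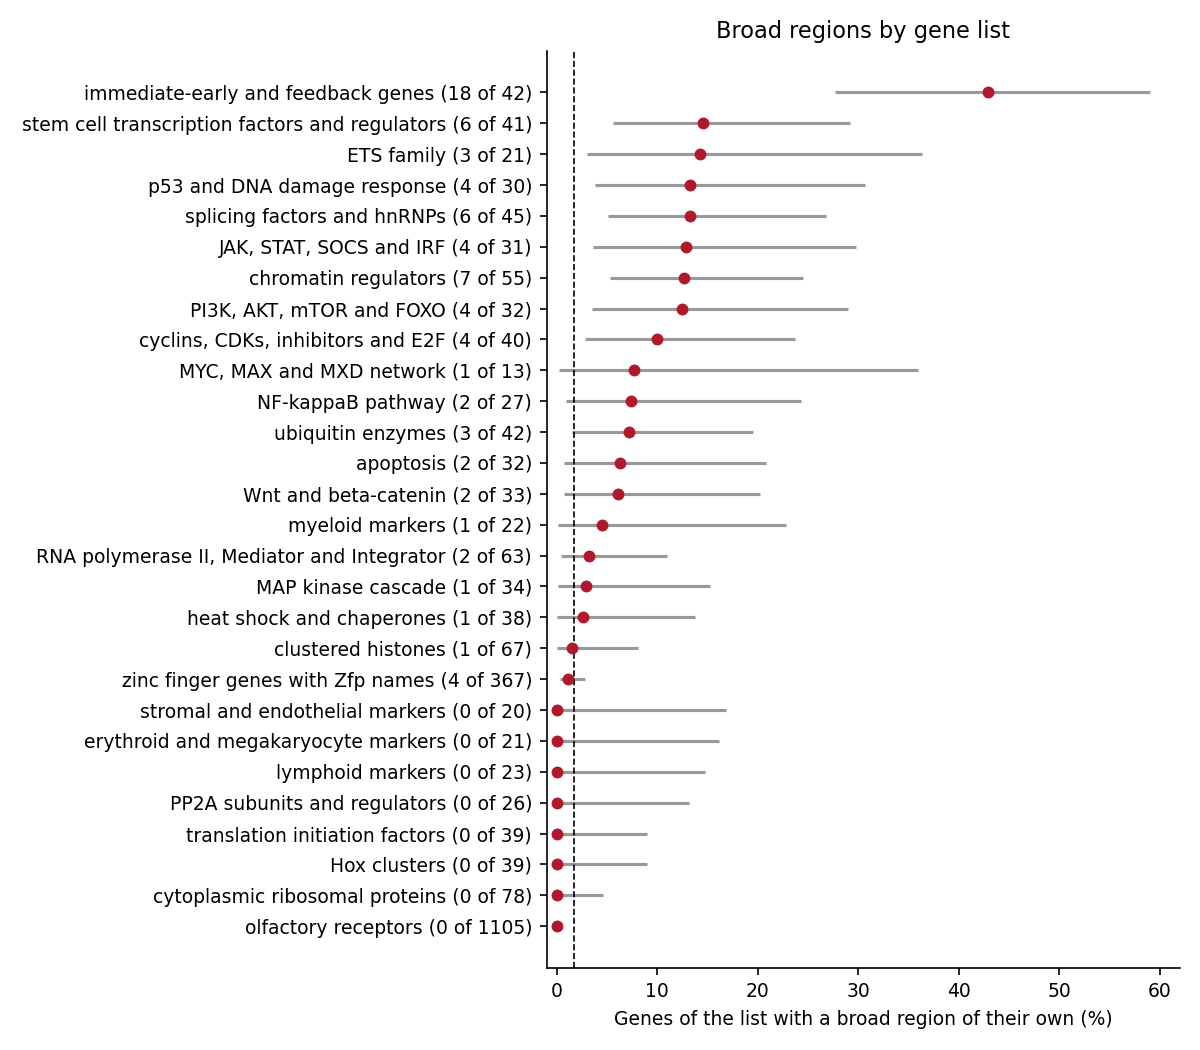
Percent of the genes in each of the 28 lists that have a broad region of their own (red points), with exact 95% intervals (grey lines, counting error only); the numbers in brackets give the genes with a broad region and those found, and the dashed line is the 1.76% of all protein-coding genes. The immediate-early list stands at 42.9%, the next, the stem cell list, at 14.6%. Lists differ in how many of their genes had a region of their own, which the line does not take into account. Of all genes 27.1% had such a region, and 6.51% of those had a broad one.

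The 15 members at a 3′ boundary alone, named after their values were seen, were 1629 to 3098 bp wide with medians of 30 fragments in each library. Their median fold was 4.76 and 4.61, against 6.51 and 6.55 for the 285 members at starts. In 9 of the 15 the region lay wholly past the 3′ boundary, in 4 it held it and in 2 it lay wholly inside the gene. Both summits lay past the boundary in 11 of 15 (73.3%), against 88 of 144 narrower regions there (61.1%). The exact interval for the members was 44.9% to 92.2%, so the shares cannot be told apart.

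The highest of the 15 included 3 immediate-early genes, Fosb, Fos and Nr4a1. Fosb had 111 and 128 fragments at chr7:19301086-19303034, from -338 bp, inside the gene, to 1610 bp past its 3′ boundary. Fos had 104 and 115 at chr12:85477867-85479495, from 593 to 2221 bp past it. Nr4a1 had 98 and 113 at chr15:101275221-101278318, from 426 to 3523 bp past it. Midn, the gene of midnolin, a protein that brings immediate-early factors to the proteasome, had 92 and 102 over 2161 bp, from 126 to 2286 bp past the boundary. Mrpl58, a mitochondrial ribosome release factor, had 59 and 83 over 1799 bp. The other 10 lay at or below 42 fragments in both libraries: Odc1, the first enzyme of polyamine synthesis (35 and 42), Bad (30 and 24), Lfng, a Notch glycosyltransferase (30 and 32), Gimap6, an immune GTPase (30 and 30), LOC108167320, Ptbp1, Yeats4, a histone acetyl reader, Pigv, an enzyme of GPI anchor synthesis, Tmem191c and Ankrd13a.

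Several of these genes had another region at their start. The Fos start region was 1348 bp wide and had 210 and 230 fragments, higher than the broad region past the gene but narrower. The same held for Fosb (917 bp, 165 and 210), Odc1 (1083 bp, 100 and 99) and Ptbp1 (1534 bp, 143 and 164). Nr4a1 was the reverse, with 74 and 60 fragments over 944 bp at its annotated start. Over all immediate-early regions with a strand, 6 of 32 (18.8%, 7.21% to 36.4%) lay at a 3′ boundary alone, against 153 of 4833 regions of other genes (3.17%, 2.69% to 3.7%). The immediate-early list was drawn up knowing earlier results, and 3′ boundary genes were picked with their values in view. Both shares are a description only, and their intervals are no test of a 3′ tendency.

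**Figure D5:**
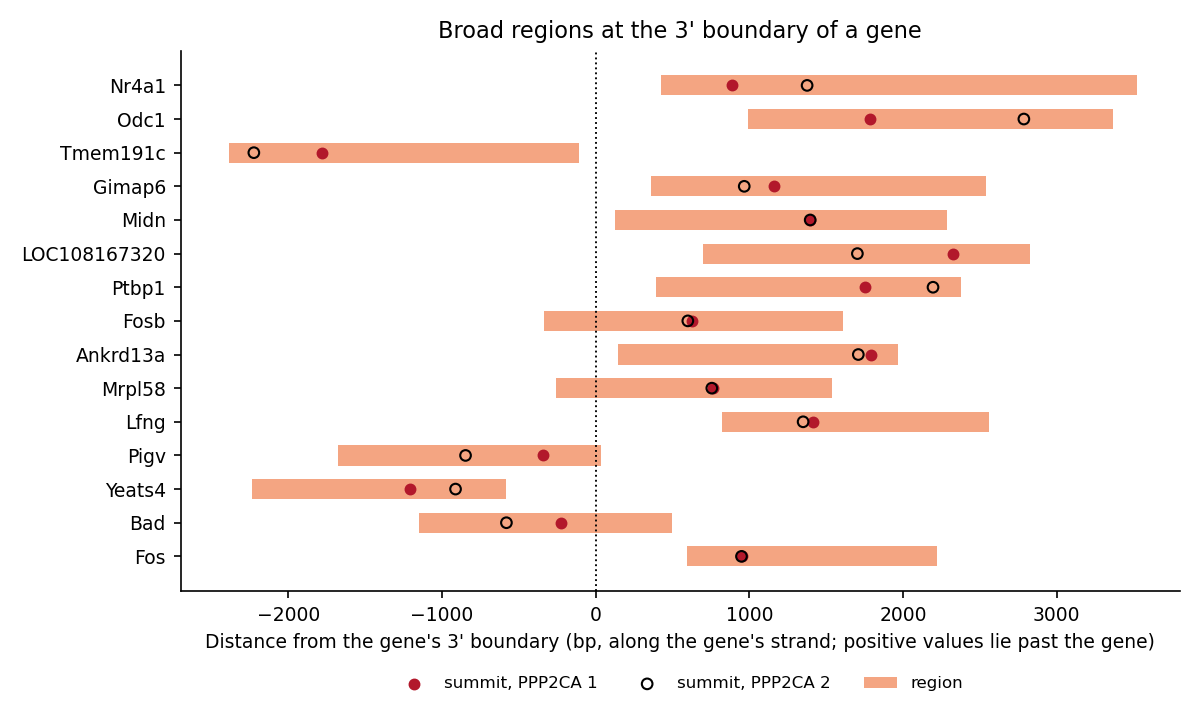
Position of the 15 broad regions at a 3′ boundary alone (bars), with distance in bp from the gene's 3′ boundary along its strand and positive values past the gene; filled points are summits of PPP2CA 1, open points summits of PPP2CA 2. At 9 genes the whole bar lies past the boundary, and the summits of both libraries lie within 10 bp of each other at Midn, Mrpl58 and Fos.

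The 8 members within reach of both boundaries belonged to short genes of 1479 to 3146 bp: Junb, Gadd45g, Ddit4, the lymphotoxin gene Ltb, the RNA-binding protein gene Pcbp1, Bola1, Gm51999 and Gm20346. Junb was the highest of them at 356 and 378 fragments, and the other 7 had 27 to 70 in PPP2CA 1 and 30 to 66 in PPP2CA 2. Short genes of at most 5 kb made up 12.2% of all members and 10.5% of narrower regions.

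The share of single-gene regions that were broad ran over the autosomes from 3.99% on chromosome 5 (16 of 401) to 11.1% on chromosome 17. It was 8.56% on chromosome 11 (44 of 514), 10.4% on chromosome 10 (33 of 317), 11.1% on chromosome 17 (32 of 288) and 4.79% on the X chromosome (8 of 167). The end of an lncRNA gene lay within 1 kb of 67 members (17.4%) and 865 narrower regions (15.4%), so some regions lay at the end of a non-coding gene as well. A miRNA gene end lay within reach of 7 members (1.82%), a tRNA gene end of 5 (1.3%) and a snoRNA gene end of 2 (0.519%). The shares of narrower regions were 0.801%, 0.463% and 0.534% in the same order.

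A further 19 places would have been broad single-gene regions but for an IgG peak. The widest were at Eapp, an E2F-associated phosphoprotein gene (3048 bp, 1283 and 1527 fragments in PPP2CA 1 and PPP2CA 2, against 20 and 17 in IgG 1 and IgG 2), and Alyref2, an mRNA export factor gene (2916 bp, 1097 and 1214, against 14 and 10). Hnrnpl, a splicing regulator, had 2884 bp with 256 and 275, against no peak in IgG 1 and 8 in IgG 2. Eapp and Alyref2 exceeded the highest member, Egr1, in both libraries, so the highest broad places of the libraries are partly among those left out.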

How the data were processed

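CUT&Tag peaks were analysed for 2 PPP2CA libraries and 2 IgG libraries, grouped by the sample titles. The authors deposited 1 peak list per library. Per the submitters' processing notes, the tools named are MACS2, BWA, Trimmomatic, HOMER, deepTools and ChIPseeker and the builds named are GRCm38 and mm10. Their roles and settings, and any use of IgG as a control, were not given in the sources used here. The deposited lists give for each peak a score, the fold (the ratio of the summit to its local background), the −log10 p-value and −log10 q-value of the summit, and the summit's offset in bp. These are the authors' values and serve only to describe or rank peaks of the same list.

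Fragments at each summit and the local background were computed from the fold and −log10 p-value, taking the fold as (fragments + 1) / (background + 1) and p as a Poisson tail. Whole fragments came out for 100% of peaks in each list (relative tolerance 1e-04). Read totals of the libraries were not used here.

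Regions were built by the rule given in the report. Genes came from the RefSeq table of GRCm38.p6, in which 340 entries placed below 3 Mb were left out and 21779 protein-coding genes were used. Strand and promoter sequences came from the RefSeq promoter table of the same build, which matched 308 of 384 member genes and 17492 of 21779 genes. The promoter motifs numbered 9, searched on both strands of the bases from 250 before to 50 past the start. Motif matches may overlap each other.

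The genes named were those of the 12 widest members, of the 10 best ranked by −log10 q-value (the worse of both within-library ranks), of the 3 regions on each side of the width limit, and of each gene list's members (all up to 6, otherwise the 4 widest), 79 genes in all, of which 1 is not reported here. Genes at a 3′ boundary or at both boundaries, and near misses, were chosen once their values had been seen. The 28 gene lists, like the members, were chosen with earlier results of these data known.

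No test was made: the members were chosen by measured width, and with 2 libraries a group an exact permutation test cannot go below p = 0.333. Shares carry exact Clopper-Pearson intervals at 95%, which cover counting error only. All regions come from the same libraries, so differences between libraries or animals are not covered. Fragment numbers may include PCR copies, which are not independent molecules. In 13 alternatives the width limit, the measure of width, merging, windows, a q-value minimum, lncRNA genes, IgG peaks and single libraries were varied. The computations were tested on simulated peaks. Python 3.11.15, pandas 2.3.3, numpy 2.4.6, scipy 1.17.1 and matplotlib 3.10.9 were used.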

Additional observations from a re-analysis of the deposited data

How the results depend on the processing

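Of 477 values over 37 results and 13 alternatives, 404 stayed within the limit set for them and 73 moved. The number of members was judged by a fixed ratio to the main number, under which 272 counted as unchanged. Shares were judged by their exact interval. Medians were judged by the spread between the medians of both PPP2CA libraries, 0.0403 for fold and 4.95 fragments for summits. Where a setting changes the width limit, the measure of width or the libraries, its construction changes who is a member; for the others the cause was not tested. The number of members was 789 at 1400 bp, 99 at 2000 bp and 159 by the stretch called in both libraries, and 227 to 397 when 1 library was left out (227 without PPP2CA 2, 272 without PPP2CA 1). The share of single-gene regions that were broad was 13.1%, 1.65% and 2.65% in the first 3 settings, 7.56% with a −log10 q of 5 or more, and 3.32% to 6.55% without 1 library. The share of protein-coding genes was 3.61%, 0.455% and 0.725%, 1.46% with lncRNA genes counted, and 1.04% to 1.82% without 1 library. Median fold in PPP2CA 1 was 6.84 at 1400 bp, 5.84 at 2000 bp, 6.52 by the shared stretch, 6.5 with a 500 bp window, 6.61 with the q minimum, 6.53 with IgG regions kept, and 6.44 to 6.51 without 1 library. In PPP2CA 2 it was 6.82, 5.79, 6.47, 6.44, 6.56, 6.47 and 6.36 to 6.46 in the same order. Median summits in PPP2CA 1 were 49, 73 and 88 fragments in the first 3 settings and 54 to 66 without 1 library. In PPP2CA 2 they were 56, 91 and 94, 66.5 with the q minimum, and 61.5 to 72 without 1 library. The share of members whose widest peak reached the limit in every library used was 95.6% by the shared stretch and 42.8% to 100% without 1 library, where a lone library meets it by construction. The start share was 88.3% at 2000 bp and 88.7% with a 2 kb window. The immediate-early list had 16.7% at 2000 bp, 21.4% by the shared stretch and 23.8% to 45.2% without 1 library. At 2000 bp the ETS, MYC, MAP kinase, Wnt, heat shock, polymerase, histone and Zfp lists had 0%, cyclins 2.5%, splicing 2.22%, chromatin 3.64% and JAK-STAT 3.23%. By the shared stretch the MYC, MAP kinase, Wnt and histone lists had 0%, cyclins 2.5%, splicing 4.44%, JAK-STAT 3.23% and Zfp 0.272%. The MYC list had 0% with the q minimum and the heat shock list 0% with lncRNA genes counted. Without 1 library the MYC list ran from 0% to 7.69%, MAP kinase 0% to 2.94%, Wnt 0% to 6.06% and histones 0% to 1.49%. No paired analysis was possible because no result comes from a test. The low depth of the IgG lists limits what the absence of an IgG peak shows.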

Other observations

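Genes outside the lists, picked after their values were seen and given as values only, included other regulators of growth factor signalling. Of all protein-coding genes 1.76% had a broad region, and families picked in this way were not assessed against that share. The Spred genes restrain Ras signalling. Spred2 had 2501 bp with 138 and 192 fragments in PPP2CA 1 and PPP2CA 2, Spred3 2162 bp with 53 and 58, and Spred1 1638 bp with 44 and 40. Dusp4, another MAP kinase phosphatase, had 2141 bp with 46 and 51. Nab2, a corepressor of EGR factors, had 2357 bp with 73 and 94, reaching from -2217 to 139 bp of its start. Trib1, a pseudokinase that directs CEBPA to degradation, had 1744 bp with 145 and 166. Pim1, a kinase induced by cytokines, had 2227 bp with 314 and 323, and was the highest of these 7.

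Other members picked in the same way included Amd1 and Odc1, the rate-controlling enzymes of polyamine synthesis. Amd1 had 171 and 171 fragments over 1973 bp at its start, and Odc1 had 35 and 42 over 2374 bp past its 3′ boundary. The clock genes Per2 (1633 bp, 42 and 44) and Bhlhe40 (1704 bp, 72 and 103) and the unfolded protein response factor Xbp1 (1765 bp, 55 and 66) had broad regions, the first of them below the median height of the members.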
